A study of Homo sapiens with 96 samples.

Results

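The genes described here are 10 chemokine, cytokine and NF-κB feedback genes in A375, an established human melanoma line that grows under a mutated BRAF kinase. They were taken by symbol from a table of read counts with 44659 gene entries and followed over all 32 groups of the series. CXCL8, CXCL1, CXCL2, CXCL3 and CCL2 encode secreted chemokines, small proteins that attract leukocytes. IL6 and LIF encode cytokines that signal through the shared receptor subunit gp130. NFKBIA encodes IκBα, the inhibitor that holds NF-κB in the cytoplasm, TNFAIP3 encodes a ubiquitin-editing enzyme that limits signalling towards NF-κB, and BIRC3 encodes a ubiquitin ligase of the inhibitor of apoptosis family. NF-κB dimers enter the nucleus once IκBα is degraded, and there they activate chemokine genes together with the genes of their own inhibitors, which gives the pathway its negative feedback. Many of these mRNAs are short-lived and carry AU-rich elements in the 3′ untranslated region, to which proteins that speed mRNA decay can bind.

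Cells were kept for 18 h in DMSO or in MAPKi, which is 500 nM vemurafenib (a BRAF inhibitor) with 500 nM cobimetinib (a MEK inhibitor). They then received vehicle (DMSO), cycloheximide at 100 µg/ml to stop translation (CHX), triptolide at 25 µM to stop transcription (T), or CHX followed after 5 min by T (TCHX). Cells were harvested at once (0 h) or after 1, 3 and 5 h from 4 separately treated sets of cells, with 3 libraries per group and 96 in all. Cytoplasmic RNA was measured by QuantSeq, which reads the 3′ end of polyadenylated transcripts. All libraries come from the same cell line, and the labels do not say whether the 3 replicates were separate cultures, so that p-values measure the spread between these libraries, which may be technical.

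The libraries held 2381351 to 12520154 counts (median 7143396), and replicates of a group correlated at a Pearson r of 0.960 to 0.990. In the shallowest library 3 counts amounted to 1.26 CPM and in the deepest to 0.24 CPM, which is the limit below which these low genes cannot be followed. CPM is the count relative to the scaled size of the library, except that these limits and the filter level use the unscaled total. Of 9 melanocyte lineage markers, 8 reached 1 CPM in a group, and their summed level was 742 to 1109 CPM in DMSO libraries and 2242 to 4065 CPM in MAPKi libraries. Of 13 leukocyte, endothelial and stromal markers, 6 reached 1 CPM in a group, CD3E, NKG7 and CDH5 were at 0, and the sum was 2.90 to 10.4 CPM in DMSO and 4.42 to 13.8 CPM in MAPKi.

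Of the 10 members, 7 passed the filter on low counts and could be tested. IL6 had 0 counts in all 96 libraries, so that its level was under the limit of 3 counts in each. CCL2 had 6 counts, all in 1 MAPKi CHX library at 5 h. CXCL2 had 42 counts in 13 libraries, with 5, 9 and 8 counts in the MAPKi CHX libraries at 5 h as its highest group. Among the tested members, NFKBIA was counted in all 96 libraries (118177 counts), BIRC3 in 93, TNFAIP3 in 91, CXCL1 in 77, LIF in 70, CXCL8 in 61 and CXCL3 in 46, the last with 419 counts in all. The group with the highest mean was a CHX group at 5 h for each of the 7, that of MAPKi for CXCL1, CXCL3, NFKBIA and BIRC3, and that of DMSO for CXCL8, LIF and TNFAIP3.

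CXCL8, CXCL1, CXCL3 and CXCL2 lie close together on chromosome 4 (GRCh38, GENCODE), at 73740519 to 73743716 and 73869393 to 73871308 on the plus strand and at 74036589 to 74038807 and 74097040 to 74099196 on the minus strand. NFKBIA lies on chromosome 14 (35401079 to 35404749, minus), TNFAIP3 on chromosome 6 (137867214 to 137883314, plus), BIRC3 on chromosome 11 (102317484 to 102339403, plus) and LIF on chromosome 22 (30240453 to 30246759, minus). CXCL1 and CXCL2 share 46 of the 451 stretches of 50 bases in the last 500 bases of their transcripts, so that reads may be split between them and both counts are uncertain. LIF, TNFAIP3, BIRC3 and IL6 overlap genes on the opposite strand, and the sources used here do not state whether counting used the strand, so that their counts are uncertain too. LIF-AS2 had 924 counts and WAKMAR2, which overlaps TNFAIP3, had 160.

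The promoters are shown because NFKBIA, TNFAIP3, BIRC3, CXCL1 and CXCL8 rose under CHX in both pretreatments, as described further on. All of these but CXCL8 hold the motif that NF-κB binds. Whether the motif has a part in the rise was not tested. The genes were chosen as chemokines and NF-κB feedback genes, many of them known NF-κB targets, so that finding the motif in them largely restates the choice. RefSeq (GRCh38.p14) windows from 250 bases before to 50 bases after the start were given for 8 members, and LIF and CCL2 had none. The κB motif, the binding sequence of NF-κB, was searched on both strands as GGGRNWYYCC, and overlapping matches were merged for display. In it R is A or G, W is A or T, Y is C or T and N is any base. It was found in 7 of the 8 windows, whereas 5.91% of 35116 windows of the same length hold it. The 7 include IL6, which had 0 counts in all 96 libraries. Its match begins at −73, and its stretch is not shown. A match is a description of the sequence and not a measured binding site. The stretches below are 110 bases each, 5′ to 3′, with matches in capitals. They end at the base before the start, except for BIRC3, where the stretch runs from position −210 to −101.
CXCL1 (chr4:73869283-73869392, plus strand): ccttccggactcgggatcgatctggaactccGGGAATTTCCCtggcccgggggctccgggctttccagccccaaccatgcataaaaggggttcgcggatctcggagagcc
CXCL3 (chr4:74038690-74038799, minus strand): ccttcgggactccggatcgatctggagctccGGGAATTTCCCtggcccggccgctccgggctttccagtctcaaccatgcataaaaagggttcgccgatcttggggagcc
CXCL2 (chr4:74099196-74099305, minus strand): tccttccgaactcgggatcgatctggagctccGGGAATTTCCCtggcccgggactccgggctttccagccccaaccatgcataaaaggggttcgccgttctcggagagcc
NFKBIA (chr14:35404750-35404859, minus strand): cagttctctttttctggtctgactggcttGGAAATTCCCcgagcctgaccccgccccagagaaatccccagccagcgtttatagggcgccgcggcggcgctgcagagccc
TNFAIP3 (chr6:137867149-137867258, plus strand): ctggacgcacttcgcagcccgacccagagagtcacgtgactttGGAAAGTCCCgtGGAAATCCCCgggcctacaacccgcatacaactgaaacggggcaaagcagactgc
BIRC3 (chr11:102317274-102317383, plus strand): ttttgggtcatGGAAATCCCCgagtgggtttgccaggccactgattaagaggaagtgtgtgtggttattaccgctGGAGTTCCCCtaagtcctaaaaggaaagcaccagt
CXCL8 (chr4:73740459-73740568, plus strand): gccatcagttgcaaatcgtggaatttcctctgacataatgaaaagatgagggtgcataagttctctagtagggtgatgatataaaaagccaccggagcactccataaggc
CXCL1, CXCL2 and CXCL3 hold the same stretch, GGGAATTTCCC, which begins at −79, −78 and −79. In NFKBIA the match begins at −81, TNFAIP3 holds a pair of matches beginning at −67 and −55, and BIRC3 holds a pair beginning at −199 and −135. The CXCL8 window holds no full match to the motif, but its stretch holds tggaatttcc, which departs from it only at the first base. The lack of a match does not show that NF-κB has no site there.

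The 3′ untranslated regions were searched for ATTTA, the pentamer of AU-rich elements, on the transcript strand with overlapping matches counted. The region of CXCL2 held 10 in 716 bases, that of CXCL8 9 in 1252, that of CXCL3 7 in 673, that of CXCL1 6 in 772, that of IL6 6 in 425, that of LIF 7 in 3198, that of BIRC3 12 in 2301, that of TNFAIP3 5 in 1993, that of NFKBIA 3 in 500 and that of CCL2 1 in 376. At least 5 pentamers were found in 8 of the 10 members and in 35.5% of the 11954 tested genes with an annotated region. The nonamer TTATTTATT was found in 7 of the 10 and in 10.0% of those genes. Many mRNAs of such cytokine and feedback genes are known to carry AU-rich elements, so that these counts largely restate the choice of genes. IL6, CCL2 and CXCL2 are among the 10 although they were not tested, so that the sets differ in this too. A window of 30 bases is shown for the most clustered pentamers of 4 members that differ in number, with ATTTA in capitals.
CXCL8 (chr4:73743108-73743137, plus strand): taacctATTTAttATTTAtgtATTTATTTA
CXCL1 (chr4:73870665-73870694, plus strand): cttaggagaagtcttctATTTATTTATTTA
BIRC3 (chr11:102338408-102338437, plus strand): acttaacaaATTTATTTAatcacagATTTA
NFKBIA (chr14:35401922-35401951, minus strand): ctaaaaaaagaaaaaagaagaaaaaATTTA
The CXCL8 window holds 4 pentamers, those of CXCL1 and BIRC3 hold 3 each, and that of NFKBIA holds 1.

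The first comparison asked how the members stood after 18 h of MAPKi, before any other inhibitor. CXCL8, LIF and TNFAIP3 were lower in MAPKi than in DMSO and NFKBIA was higher, whereas BIRC3, CXCL1 and CXCL3 did not pass the test. CXCL8 had 5, 14 and 25 counts in the DMSO libraries and 0 in each MAPKi library, which makes it at least 4.34-fold lower with 3 counts per library as the limit (adjusted p = 0.000112, edgeR quasi-likelihood test over all genes). LIF had 10, 28 and 68 counts in DMSO and 0 in each MAPKi library, at least 10.1-fold lower (adjusted p = 3.05e-05, edgeR). In bulk RNA, fewer cells of a type and less RNA per cell cannot be told apart. The other arms were harvested at 0 h as well, and there too CXCL8 had 0 counts in every MAPKi library of the CHX, T and TCHX arms.

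TNFAIP3 measured 11.4, 16.6 and 13.5 CPM in DMSO and 1.23, 1.97 and 0.943 CPM in MAPKi, so that the groups did not overlap. The means were 13.8 ± 2.60 and 1.38 ± 0.53 CPM (SD, n = 3), 10.0-fold lower in MAPKi, with a fitted log2 change of −3.37 ± 0.37 (approximate SE; adjusted p = 1.65e-13, edgeR). NFKBIA measured 52.5, 48.4 and 48.9 CPM in DMSO and 108, 95.2 and 113 CPM in MAPKi. All MAPKi libraries lay above all DMSO libraries, a 2.11-fold difference (log2 1.09 ± 0.13, adjusted p = 2.5e-11, edgeR). Thus these feedback genes moved in opposite directions.

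BIRC3 measured 0.622, 1.25 and 0.846 CPM in DMSO and 0.548, 2.86 and 0.674 CPM in MAPKi, and the groups overlapped (adjusted p = 0.64, edgeR). CXCL1 had 3, 8 and 7 counts in DMSO and 0, 3 and 7 in MAPKi (adjusted p = 0.537, edgeR). CXCL3 had 1, 3 and 5 counts against 1, 0 and 0 (adjusted p = 0.117, edgeR).

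Thus 1 of the 10 members was higher and 3 were lower with 3 not tested, where 23.3% of 14948 genes tested were higher and 24.8% lower. A call in this comparison is common among all genes, and 53.1% of them had no overlap between the libraries of the pretreatments. The summed melanocyte markers were also higher in MAPKi. Of 8 tested singly, 5 were higher and 1 was lower, with a median log2 change of 1.41. DCT was higher by log2 5.30 ± 0.24 and PMEL by 3.84 ± 0.43 (adjusted p = 2.6e-29 and 6.48e-13, edgeR). The part of these markers in the members' differences was not tested.

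**Figure D1:**
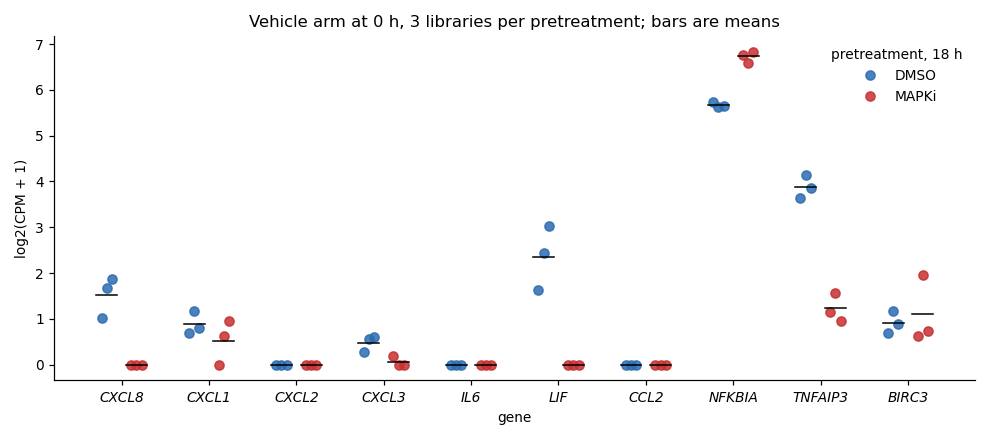
Level of the 10 genes in the vehicle arm at 0 h as log2(CPM + 1), with 3 libraries per pretreatment as dots (blue DMSO, red MAPKi) and their mean as a bar. TNFAIP3, CXCL8 and LIF sit lower and NFKBIA sits higher in MAPKi, and IL6, CXCL2 and CCL2 lie at or close to 0.

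Averaged over the 4 vehicle times, at which 36.4% of genes were higher and 33.5% lower, NFKBIA stayed higher in MAPKi (log2 0.73 ± 0.06) and TNFAIP3 lower (−2.77 ± 0.19). CXCL1 also passed the test over these 4 times (−1.08 ± 0.44, adjusted p = 0.0232, edgeR), although its direction was not the same at each time. At 3 h it had 8, 17 and 22 counts in MAPKi and 9, 18 and 8 in DMSO, a mean 1.70-fold higher in MAPKi with overlap, whereas its mean was lower in MAPKi at 0, 1 and 5 h. TNFAIP3 was 2.85-fold lower at 1 h, 7.92-fold at 3 h and 9.37-fold at 5 h, without overlap of the groups at any time. Such a separation is common, since 54.4% of genes tested had no overlap at 1 h, 50.6% at 3 h and 53.9% at 5 h. NFKBIA overlapped between the pretreatments at 1 h, where the mean was 140 ± 11.1 CPM in DMSO and 158 ± 15.7 CPM in MAPKi (SD, n = 3), and did not overlap at 3 h and 5 h.

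In the vehicle arm NFKBIA was higher at 1 h than at 0 h. This comparison was added after the values had been seen. In DMSO the mean was 140 ± 11.1 CPM after 1 h, as compared to 49.9 ± 2.24 CPM at 0 h, 64.9 ± 6.62 CPM after 3 h and 47.1 ± 3.99 CPM after 5 h (SD, n = 3). The difference between 1 h and 0 h was 1.50 ± 0.13 on the log2 scale (adjusted p = 3.96e-15, edgeR), and NFKBIA was among the 0.0736% of genes that were higher. In MAPKi the mean was 105 ± 9.17 CPM at 0 h, 158 ± 15.7 at 1 h, 101 ± 2.98 at 3 h and 97.3 ± 1.71 at 5 h. Here NFKBIA (log2 0.58 ± 0.12, adjusted p = 0.00726, edgeR) and TNFAIP3 (2.18 ± 0.44, adjusted p = 0.00611, edgeR) were among the 0.134% of genes that were higher at 1 h. TNFAIP3 had 9, 11 and 7 counts at 0 h in MAPKi, 53, 28 and 42 at 1 h, 15, 5 and 8 at 3 h and 11, 2 and 6 at 5 h. In MAPKi the call of NFKBIA was lost without any one of the replicates (adjusted p = 0.105 to 0.215), and that of TNFAIP3 was lost without replicate 1 (0.643) or replicate 3 (0.0774, edgeR). Each time came from its own set of cells, so that time and set cannot be told apart.

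The next comparison asked how the mRNAs respond when translation is blocked while transcription goes on. NFKBIA, TNFAIP3, BIRC3, CXCL1 and CXCL8 rose under CHX in both pretreatments, and LIF rose in DMSO. CXCL3 was higher in MAPKi, but it reached the level of the filter on low counts (1.40 CPM) in 6 libraries, all of them CHX libraries of MAPKi at 3 h and 5 h, so that it had to differ there. At 1 h the libraries of the CHX and vehicle arms overlapped for all of these except NFKBIA in MAPKi, and the rise was seen at 3 h and 5 h. Averaged over 1, 3 and 5 h, 6 of the 10 members were higher in DMSO with 3 not tested, where 16.1% of all genes tested were higher. In MAPKi NFKBIA, TNFAIP3, BIRC3, CXCL1 and CXCL8 were higher, where 15.4% of all genes were. CXCL3 is left out there, since the filter fixed its difference. None of the 7 was lower in either. At 5 h the CHX libraries lay above all vehicle libraries for 7 of the 10 members in each pretreatment, with LIF among them in DMSO and the untested CXCL2 in MAPKi, as they did in DMSO and MAPKi for 21.3% and 21.5% of the genes tested. The 7 in MAPKi include CXCL3, which the filter fixed.

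NFKBIA measured 523, 519 and 519 CPM under CHX at 3 h in DMSO and 484, 443 and 517 CPM at 5 h, whereas the vehicle libraries at 5 h averaged 47.1 ± 3.99 CPM (SD, n = 3). The CHX libraries lay 10.2-fold above vehicle at 5 h and did not overlap with them. In MAPKi the mean under CHX was 228 ± 29.8 CPM at 1 h, 983 ± 51.8 at 3 h and 1010 ± 57.2 at 5 h, 10.4-fold above vehicle at 5 h. The fitted change over 1, 3 and 5 h was 2.08 ± 0.07 in DMSO (adjusted p = 9.22e-44) and 2.40 ± 0.07 in MAPKi (1.44e-49, edgeR).

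TNFAIP3 measured 90.4, 86.1 and 87.0 CPM under CHX at 5 h in DMSO, where vehicle had 7.88, 9.54 and 5.51 CPM. In MAPKi it measured 76.3, 86.1 and 86.1 CPM, where vehicle had 1.57, 0.267 and 0.605 CPM. The 5 h level under CHX was thus 11.5-fold above vehicle in DMSO and 102-fold above it in MAPKi. From vehicle levels that differed 9.37-fold, the CHX libraries of both pretreatments reached levels that overlapped, with 87.8 ± 2.30 and 82.8 ± 5.66 CPM as means (SD, n = 3). Over 1, 3 and 5 h the fitted change was 2.12 ± 0.12 in DMSO and 4.06 ± 0.19 in MAPKi (adjusted p = 3.35e-30 and 1.4e-34, edgeR).

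BIRC3 had 225, 177 and 371 counts under CHX at 5 h in DMSO and 13, 29 and 8 in vehicle. In MAPKi it had 742, 1021 and 807 counts under CHX and 19, 25 and 18 in vehicle. The means under CHX were 36.9 ± 2.41 and 81.0 ± 8.70 CPM (SD, n = 3), 9.31-fold and 30.8-fold above vehicle. Over the 3 times the change was 1.95 ± 0.24 in DMSO and 2.70 ± 0.20 in MAPKi (adjusted p = 6.64e-11 and 6.08e-21, edgeR).

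**Figure D2:**
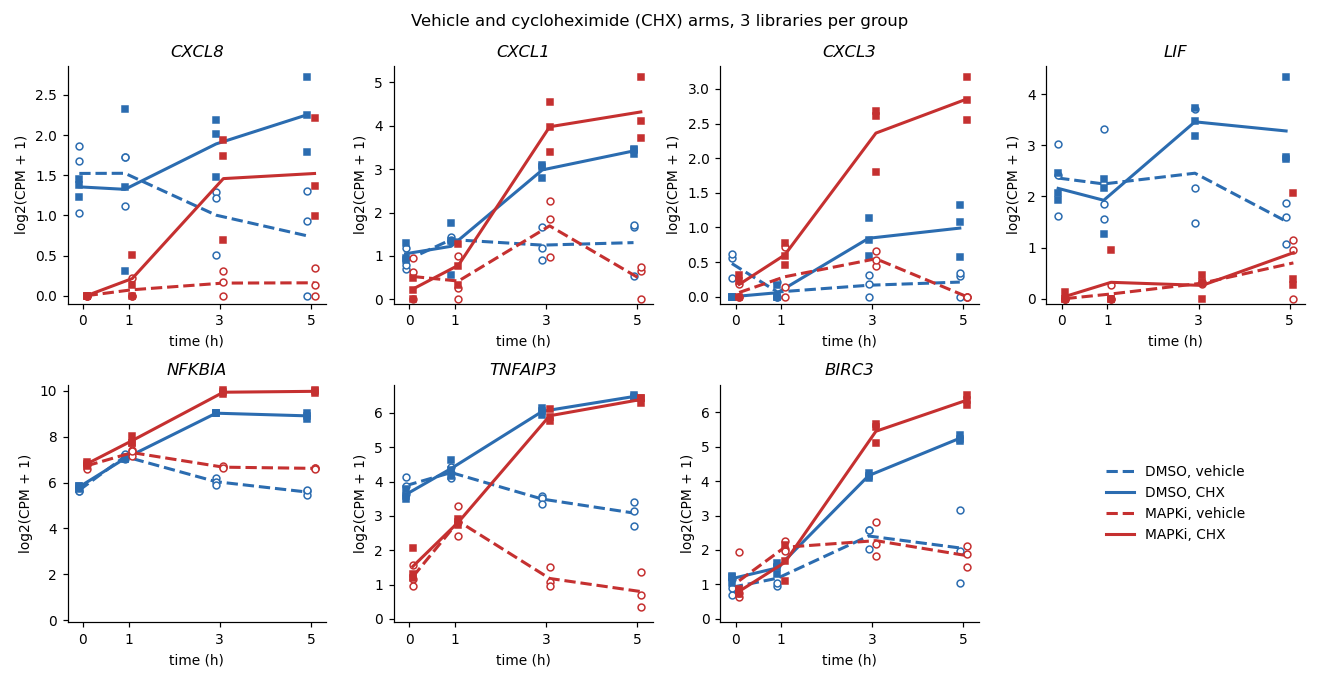
Level of the 7 tested genes as log2(CPM + 1) against time in h, with vehicle as open circles and dashed lines, CHX as filled squares and solid lines, DMSO in blue and MAPKi in red. Points are the 3 libraries of a group, lines join the means, and each panel has its own vertical scale. NFKBIA reaches 1010 CPM in MAPKi under CHX at 5 h as the mean of the group, and TNFAIP3 reaches 87.8 CPM in DMSO and 82.8 CPM in MAPKi.

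Of the chemokines, CXCL1 had 61, 41 and 107 counts under CHX at 5 h in DMSO and 2, 8 and 17 in vehicle, a 5.92-fold difference without overlap. In MAPKi it had 124, 383 and 164 counts under CHX and 4, 5 and 0 in vehicle, a ratio of 57.5 with a 95% counting interval of 30.1 to 126. Over the 3 times the fitted change was 1.61 ± 0.32 in DMSO and 3.21 ± 0.45 in MAPKi (adjusted p = 2.36e-05 and 3.52e-09, edgeR). CXCL3, its close relative, had 63, 91 and 49 counts under CHX at 5 h in MAPKi and 0 in each vehicle library, at least 16.8-fold higher. In DMSO CXCL3 had 3, 5 and 16 counts under CHX and 1, 0 and 2 in vehicle, a ratio of 5.84 with a counting interval of 1.77 to 30.3. Its change over the 3 times was 4.32 ± 0.60 in MAPKi, given with no test since these libraries alone brought it past the filter, and in DMSO it did not pass (1.70 ± 1.20, adjusted p = 0.325, edgeR).

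CXCL8 had 23, 11 and 60 counts under CHX at 5 h in DMSO and 4, 0 and 11 in vehicle, so that the groups did not overlap in CPM. In MAPKi, where vehicle had 0, 2 and 1 counts, the CHX libraries had 10, 41 and 16, a ratio of 17.2 with a counting interval of 5.65 to 85.7. The change over the 3 times was 1.26 ± 0.33 in DMSO (adjusted p = 0.0018) and 2.96 ± 0.95 in MAPKi (adjusted p = 0.0123, edgeR). Without replicate 1 the DMSO call was lost (0.92, adjusted p = 0.12), and without replicate 2 or 3 the MAPKi call was lost (adjusted p = 0.0614 and 0.28, edgeR).

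LIF had 35, 26 and 206 counts under CHX at 5 h in DMSO and 9, 4 and 20 in vehicle, with means of 10.3 ± 7.81 and 1.93 ± 0.80 CPM (SD, n = 3). Replicate 3 was the highest of the 3 in both arms at 5 h. The change over the 3 times was 0.91 ± 0.31 (adjusted p = 0.0208), and it did not pass without replicate 1 (0.2) or replicate 2 (0.267) or with DESeq2 (0.21). In MAPKi LIF had 2, 36 and 3 counts under CHX and 0, 7 and 12 in vehicle, and the groups overlapped (log2 0.80 ± 1.09, adjusted p = 0.641, edgeR).

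The times differed. At 1 h none of the members passed the test in DMSO, where 0.107% of genes were higher, and at an unadjusted p under 0.05 none did either. In MAPKi NFKBIA passed at 1 h (0.52 ± 0.12, adjusted p = 0.0194, edgeR), where 0.134% of genes were higher. At 3 h 4 members were higher in DMSO and 6, with CXCL3, in MAPKi, where 9.35% and 7.79% of genes were. At 5 h 6 members were higher in each, where 16.9% and 16.2% of genes were. The MAPKi counts at 3 h and 5 h include CXCL3, which the filter fixed, so that it does not bear on these shares.

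**Figure D3:**
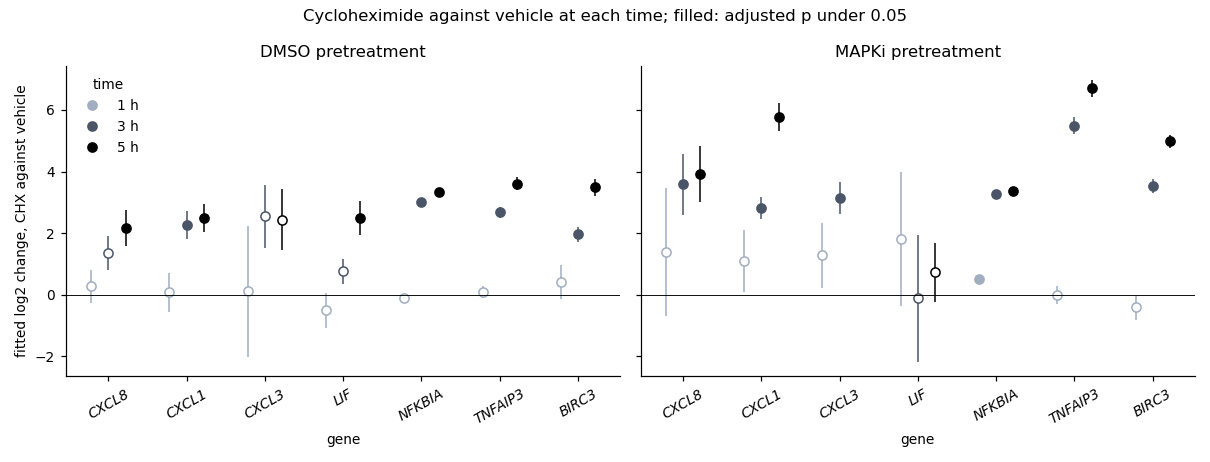
Fitted log2 change of CHX against vehicle at 1, 3 and 5 h (light to dark) in DMSO (left) and MAPKi (right), with approximate SE as bars and filled symbols for an adjusted p under 0.05. The change of CXCL3 at 5 h in MAPKi is left out, since its vehicle libraries were at 0. The filter fixed the change of CXCL3 at 3 h in MAPKi as well, so that a filled symbol there is no test result. The largest plotted change is that of TNFAIP3 at 5 h in MAPKi, 6.70 ± 0.28.

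Whether the CHX response itself differed between the pretreatments was tested as the change in MAPKi minus that in DMSO. TNFAIP3 responded more in MAPKi, by 1.94 ± 0.25 on the log2 scale over 1, 3 and 5 h (adjusted p = 4.28e-09, edgeR), with 2.81 ± 0.41 at 3 h, where 0.589% of genes had a larger change in MAPKi, and 3.09 ± 0.50 at 5 h, where 4.38% had. NFKBIA differed by 0.31 ± 0.10 (adjusted p = 0.0284), which did not pass without any one of the replicates (0.125 to 0.162) or at a single time. These are 2 of the 10 members, where 3.34% of genes had a larger change in MAPKi. CXCL1 differed by 1.61 ± 0.55 (adjusted p = 0.0544), by 0.54 ± 0.67 at 3 h (0.865) and by 3.28 ± 0.94 at 5 h (0.0115, edgeR). At 3 h the CHX libraries lay 4.84-fold above vehicle in DMSO and 6.37-fold in MAPKi, and the MAPKi vehicle libraries held 47 counts at 3 h and 9 at 5 h. BIRC3 differed by 0.75 ± 0.31 over the 3 times (adjusted p = 0.125), by 1.58 at 3 h (0.00963) and by 1.50 at 5 h (0.023, edgeR). CXCL3, CXCL8 and LIF did not pass (adjusted p = 0.304, 0.333 and 1).

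Under CHX at 5 h the level in MAPKi relative to DMSO was 2.10-fold for NFKBIA, 2.19-fold for BIRC3, 2.14-fold for CXCL1 and 6.15-fold for CXCL3, each without overlap of the libraries. TNFAIP3 and CXCL8 overlapped, and LIF was 8.38-fold lower in MAPKi without overlap. These 5 h levels were not tested against each other, and the share of all genes without overlap under CHX was not counted. In the vehicle arm at 5 h 53.9% of genes tested had no overlap between the pretreatments, so that such a separation is common there. CXCL3 reached the level of the filter only in CHX libraries of MAPKi, so that its difference was fixed.

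Triptolide removes the supply of new mRNA, so that the amount left shows how fast an mRNA is lost. These values are CPM scaled to 36 genes whose share of the reads rose under T, called stable-gene CPM. NFKBIA fell fast. In DMSO it measured 59.3, 51.3 and 49.9 stable-gene CPM in vehicle at 0 h, 31.3, 23.8 and 19.1 after 1 h of T, 2.76, 1.58 and 3.24 after 3 h and 0.107, 0.684 and 0.364 after 5 h. No library of a later time reached the level of an earlier one. Of the level in vehicle at 0 h, 46.2 ± 11.5% was left after 1 h, 4.72 ± 1.59% after 3 h and, from 1, 6 and 4 counts, 0.719 ± 0.540% after 5 h (SD, n = 3).

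In MAPKi NFKBIA measured 116, 102 and 119 stable-gene CPM in vehicle at 0 h and 25.7, 41.8 and 48.0 after 1 h of T. The amount left was 34.2 ± 10.3% at 1 h and 1.31 ± 0.63% at 3 h (SD, n = 3). At 1 h NFKBIA was lower than in vehicle at 0 h by a log2 change of −1.10 ± 0.16 in DMSO (adjusted p = 4.82e-07), where 0.983% of all genes tested were lower, and of −1.55 ± 0.14 in MAPKi (5.62e-15, edgeR), where 2.05% were. The median change of all genes at 1 h was −0.11 in DMSO and −0.15 in MAPKi. Scaled by TMM, at which those medians were −0.01 and 0.0068, the change of NFKBIA was −0.999 and −1.39. The difference between the pretreatments, −0.46 ± 0.21, did not pass (adjusted p = 1, edgeR), and 1 gene of all those tested (0.00669%) passed, with 631 at an unadjusted p under 0.05.

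NFKBIA was the only member to pass at 1 h with the scaling to stable genes. Over 3 h and 5 h, TNFAIP3, CXCL1 and CXCL3 were lower too in DMSO, where 48.3% of all genes were lower, and TNFAIP3, CXCL1 and BIRC3 in MAPKi, where 57.4% were. CXCL3 in DMSO lay near the limit of 3 counts in vehicle at 0 h, so that its call rests on few counts. It passed the filter only through CHX libraries of MAPKi. BIRC3 in MAPKi was at 40.6, 211 and 48.5% of its mean in vehicle at 0 h, with replicate 2 far above the others. After 3 h of T it was at 61.2, 18.0 and 60.5%, which overlaps, and after 5 h at 7.10, 17.2 and 0%. TNFAIP3 in DMSO kept 72.6 ± 10.2% after 1 h, 25.3 ± 5.21% after 3 h and 14.6 ± 0.75% after 5 h (SD, n = 3), and its change over 3 h and 5 h was −2.40 ± 0.24, as compared to −5.77 ± 0.21 for NFKBIA (adjusted p = 3.25e-15 and 1.61e-42, edgeR). In the vehicle arm TNFAIP3 was at 71.4 ± 5.19% of its 0 h level after 3 h and at 56.5 ± 14.7% after 5 h. CXCL1 had 2, 0 and 1 counts after 3 h of T in DMSO, 1, 3 and 3 after 5 h, and 3, 8 and 7 in vehicle at 0 h (log2 −2.40 ± 0.96, adjusted p = 0.0313, edgeR).

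CXCL8 and LIF in DMSO kept a part of their counts under T. CXCL8 had 5, 32 and 11 counts after 3 h and 20, 11 and 12 after 5 h, which is 73.3 ± 45.4% and 72.3 ± 27.3% of the initial level (SD, n = 3). LIF had 8, 75 and 14 counts after 3 h and 17, 22 and 34 after 5 h, which is 60.8 ± 55.3% and 51.7 ± 13.3%. The vehicle arm moved as well. CXCL8 in vehicle was at 52.9 ± 27.7% of its 0 h level after 3 h and at 42.2 ± 39.1% after 5 h. LIF in vehicle was at 127 ± 123% and 44.3 ± 18.5% (SD, n = 3). The values under T are set against vehicle at 0 h, so that such drift is not taken out of them. Neither passed over 3 h and 5 h (log2 −0.50 ± 0.47 and −0.88 ± 0.47, adjusted p = 0.392 and 0.116, edgeR), and at these counts a loss smaller than the spread could not be detected. In MAPKi CXCL8 was at 0 before T and could not be followed. Of the untested members, IL6 and CCL2 had 0 counts in every T and TCHX library, and CXCL2 had 2 counts in DMSO and 1 in MAPKi after 1 h of T and 0 in every TCHX library.

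The fourth comparison set TCHX against T and asked whether mRNA is kept when translation is also blocked. NFKBIA was higher with both inhibitors in both pretreatments, TNFAIP3 was higher in DMSO, and the chemokines and LIF did not pass. In DMSO NFKBIA measured 43.8, 50.4 and 48.2 stable-gene CPM after 1 h of TCHX, 14.4, 16.6 and 9.61 after 3 h and 4.82, 2.13 and 2.01 after 5 h, each library above those of T at the same time. Relative to vehicle at 0 h this left 88.8 ± 6.23%, 25.3 ± 6.71% and 5.58 ± 2.97% (SD, n = 3). In MAPKi 78.6 ± 2.70% was left after 1 h, 34.1 ± 1.51% after 3 h and 11.2 ± 1.76% after 5 h. Over 3 h and 5 h the difference was 2.75 ± 0.30 in DMSO (adjusted p = 7.7e-13) and 4.11 ± 0.20 in MAPKi (1.12e-32, edgeR).

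At 1 h NFKBIA was already higher, by 0.93 ± 0.16 in DMSO, where 0.0535% of genes were higher, and by 1.20 ± 0.14 in MAPKi, where 0.421% were (adjusted p = 0.000333 and 1.09e-09, edgeR). Thus NFKBIA still fell with both inhibitors present, more slowly than with T alone. The difference between the pretreatments over 3 h and 5 h was 1.36 ± 0.52 and did not pass (adjusted p = 0.107, edgeR), where 5.99% of all genes did, though it passed without replicate 1 and with DESeq2.

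TNFAIP3 in DMSO measured 4.21, 8.48 and 7.48 stable-gene CPM after 3 h of TCHX and 4.27, 2.85 and 4.07 after 3 h of T, which overlap. After 5 h it measured 8.00, 5.26 and 3.86 with TCHX and 2.14, 2.05 and 2.27 with T, without overlap, a 2.65-fold difference. Over both times the difference was 1.25 ± 0.23 (adjusted p = 5.18e-06, edgeR). In MAPKi TNFAIP3 had at most 11 counts in a library of these arms at 3 h and 5 h and did not pass (1.49 ± 0.78, adjusted p = 0.12), nor did BIRC3 (1.32 ± 0.63, adjusted p = 0.0848, edgeR).

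These 2 members in DMSO and 1 in MAPKi stand against 28.2% and 42.3% of all genes that were higher with both inhibitors than with T alone, with 4210 higher and 57 lower in DMSO and 6316 higher and 97 lower in MAPKi. The balance depended on the scaling, since with TMM it was 2188 to 1078 and 2766 to 2441, and with total counts 2753 to 321 and 3755 to 813. All genes had a median change of 0.22 and 0.34 here, as compared to −0.0041 and −0.05 with TMM. NFKBIA stayed higher with TMM, by 2.53 and 3.73, and TNFAIP3 in DMSO by 1.02.

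The study's index of translation-dependent decay is the level with TCHX minus that with T, divided by the initial level, averaged here over 3 h and 5 h. For NFKBIA it was 0.138, 0.161 and 0.080 in the DMSO libraries and 0.192, 0.243 and 0.216 in the MAPKi libraries. How many of all genes had an index this far apart was not counted. For TNFAIP3 in DMSO it was 0.219 ± 0.036, for LIF 0.150 ± 0.434 and for CXCL8 0.535 ± 0.828 (SD, n = 3), with a spread wider than the mean for both LIF and CXCL8. For LIF the values were 0.651, −0.091 and −0.109. For TNFAIP3 in MAPKi they were 0.270, 0.261 and 0.999, from few counts. The arms were combined by replicate number, as the study did, although the labels do not say what links the libraries of a number. The index is given as a description with no test.

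**Figure D4:**
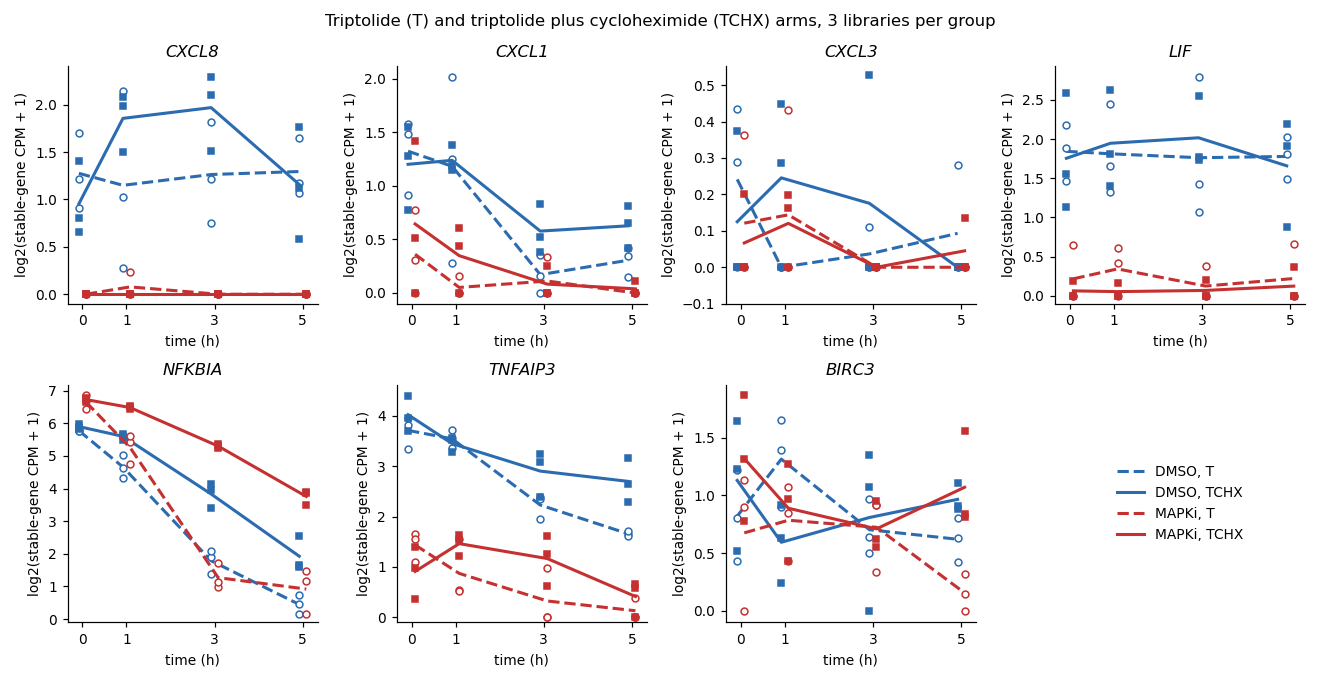
Level of the 7 tested genes as log2(stable-gene CPM + 1) against time in h after T (open circles, dashed lines) or TCHX (filled squares, solid lines), with DMSO in blue and MAPKi in red. Points are the 3 libraries of a group, lines join the means, and each panel has its own vertical scale. NFKBIA falls with T to 0.719% of its initial level at 5 h in DMSO, and with TCHX to 5.58%.

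The last comparison set TCHX against CHX and asked how much of the level under CHX is seen without transcription. At 5 h all 7 tested members were lower in DMSO when triptolide was present, where 41.7% of genes tested were. In MAPKi all 7 were lower too, where 57.6% were, with CXCL3 fixed by the filter. At the earlier time of 3 h the libraries of CXCL8 in DMSO overlapped with and without triptolide. NFKBIA measured 593, 524 and 635 stable-gene CPM under CHX at 5 h in DMSO and 4.82, 2.13 and 2.01 under TCHX, 196-fold lower, and in MAPKi it was 116-fold lower. TNFAIP3 was 18.7-fold lower in DMSO, and in MAPKi it had 2622 counts in the 3 CHX libraries and 8 in the 3 TCHX libraries. BIRC3 was 46.8-fold lower in DMSO and 100-fold lower in MAPKi, and CXCL1 21.2-fold lower in DMSO. In MAPKi CXCL1 had 671 counts under CHX and 1 under TCHX.

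CXCL8 in DMSO had 13, 30 and 19 counts after 3 h of TCHX and 12, 24 and 28 after 3 h of CHX, with means of 3.02 ± 1.06 and 3.11 ± 0.99 stable-gene CPM (SD, n = 3) that overlapped, a ratio of 0.971. At 1 h the ratio was 1.29, also with overlap (55 and 48 counts). At 5 h CXCL8 was 3.52-fold lower with TCHX than with CHX in DMSO, with 25, 4 and 7 counts against 23, 11 and 60. In MAPKi CXCL8 had 0 counts in each TCHX library, at least 7.75-fold lower. LIF in DMSO was 5.24-fold lower. Averaged over 1, 3 and 5 h, 5 of the 10 members were lower in DMSO with 3 not tested, where 41% of all genes tested were. In MAPKi NFKBIA, TNFAIP3, BIRC3, CXCL1 and CXCL8 were lower, where 54.5% were. CXCL3 is left out there, since the CHX libraries of MAPKi alone brought it past the filter. The changes in DMSO were −4.84 ± 0.09 for NFKBIA, −3.71 ± 0.30 for BIRC3, −2.85 ± 0.12 for TNFAIP3, −2.82 ± 0.36 for CXCL1 and −1.43 ± 0.31 for LIF, and CXCL8 and CXCL3 did not pass (adjusted p = 0.0615 and 0.136, edgeR). In MAPKi they were −6.40 ± 0.63 for CXCL1, −5.46 ± 0.21 for TNFAIP3, −4.83 ± 0.26 for BIRC3 and −4.43 ± 0.08 for NFKBIA, and LIF did not pass (adjusted p = 0.0585, edgeR).

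The balance over all genes was 243 higher to 6127 lower in DMSO and 155 to 8146 in MAPKi, as compared to 2592 to 3302 and 3328 to 3095 with TMM and 2494 to 3362 and 1355 to 4772 with total counts. All genes had a median change of −0.26 and −0.37 here, as compared to 0.01 and 0.03 with TMM. With TMM the change of NFKBIA was −4.57 in DMSO and −4.02 in MAPKi, and that of TNFAIP3 −2.57 and −5.05. The comparisons of TCHX with T and with CHX share the TCHX libraries, and those of T with vehicle share the vehicle libraries at 0 h with that of MAPKi with DMSO.

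Other genes of the pathway were counted by 7 lists with 99 genes, of which 74 were tested. Under CHX 27 of the 74 were higher and 7 lower in DMSO, where 16.1% of all genes were higher and 10.6% lower, and 32 were higher and 4 lower in MAPKi, where 15.4% were higher and 13.8% lower. The genes of 4 of the 5 NF-κB subunits, all tested, rose in DMSO and in MAPKi, with median changes of 0.76 and 1.08 where those of all genes were 0.0023 and −0.0035. REL rose by 1.61 ± 0.07 and 1.08 ± 0.07, RELB by 1.35 ± 0.10 and 1.13 ± 0.12, and NFKB1, which encodes the p50 precursor, by 0.66 ± 0.06 and 0.55 ± 0.06. Of 20 other cytokine and chemokine ligands, 7 were tested, and 4 rose in DMSO and 3 in MAPKi, with none lower. IL24, a cytokine of the IL-10 family, rose by 1.13 ± 0.10 and IL11, which signals through gp130 as LIF does, by 1.63 ± 0.23 in DMSO. In MAPKi CSF1, a growth factor of macrophages, rose by 1.53 ± 0.29. Of 15 other inhibitors and feedback genes, 14 were tested and 6 rose in each pretreatment with none lower. NFKBIE, another inhibitor of the IκB family, rose by 1.53 ± 0.10 in DMSO and 1.14 ± 0.12 in MAPKi, BCL3, a nuclear IκB protein, by 1.87 ± 0.15 and 2.21 ± 0.11, and ZC3H12A, an RNase that degrades inflammatory mRNAs, by 1.43 ± 0.16 and 0.95 ± 0.12.

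Of the 21 adaptors and kinases, 20 were tested, of which 5 rose and 2 fell in DMSO and 9 rose with none lower in MAPKi. MAP3K14, the kinase of the non-canonical pathway, rose by 2.60 ± 0.11 in DMSO and 1.67 ± 0.14 in MAPKi. Of the 16 receptors, of which 11 were tested, DMSO had 1 higher and 4 lower and MAPKi 1 higher and 2 lower, with medians of −0.19 and 0.02. Of 14 other NF-κB targets, 9 were tested, of which 5 were higher in DMSO, and MAPKi had 6 higher and 1 lower. IRF1, a transcription factor, rose by 1.59 ± 0.10 and 2.75 ± 0.11, and PTGS2, the inducible cyclooxygenase, by 1.89 ± 0.26 in DMSO. Of 8 AU-rich element binding proteins, all tested, DMSO had 2 higher and 1 lower and MAPKi 3 higher and 1 lower, among them ZFP36L1, which promotes decay of such mRNAs, by 0.80 ± 0.09 and 1.20 ± 0.09. The CHX response was larger in MAPKi for 11 of the 74 list genes and smaller for 9, where 3.34% of all genes had a larger and 4.62% a smaller response. Those with the smallest adjusted p of their lists were larger in MAPKi for IRF1 by 1.16 ± 0.15 and for ZFP36L2 by 1.47 ± 0.20, and smaller for IL24, REL, MAP3K14, IL6ST and CYLD, with differences of −1.31, −0.54, −0.93, −0.47 and −0.35 (log2, MAPKi minus DMSO).

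After MAPKi in the vehicle arm at 0 h, 17 of the 74 list genes were higher and 27 lower, where 23.3% of all genes were higher and 24.8% lower. Among the subunits REL was higher (0.56 ± 0.13) and RELB lower (−0.97 ± 0.24), and among the 14 tested inhibitors 6 were higher and 5 lower, with CFLAR, an inhibitor of caspase-8 activation, at 1.08 ± 0.12. Of the 8 AU-rich element binding proteins 1 was higher and 6 lower, with log2 changes of −2.17 ± 0.27 for ZFP36L2, −0.93 ± 0.11 for ELAVL1 and −0.78 ± 0.09 for HNRNPD. The 7 tested ligands held 2 that were lower, IL24 (−1.05 ± 0.20) and CX3CL1 (−0.97 ± 0.30), and the 11 tested receptors 2 higher and 5 lower, among them IL1RAP (−2.55 ± 0.16), the accessory subunit of the interleukin-1 receptor. ICAM1, an adhesion molecule and NF-κB target, was lower (−1.67 ± 0.19), whereas BCL2A1, an anti-apoptotic target, was higher (2.57 ± 0.20).

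Over the 32 group means of log2(CPM + 1), the genes most like CXCL8 were NAA25 (Pearson r = 0.943), TRAF3 (0.928) and HAUS2 (0.926), and those most like NFKBIA were ID1 (0.967), EPC1 (0.965) and ZC3H12A (0.961). Among the members, CXCL1 was most like BIRC3 (0.927) and CXCL8 most like LIF (0.876), whereas CXCL8 and NFKBIA had an r of 0.121. The group means share their libraries and the CHX and MAPKi differences, and these values are descriptions.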

How the data were processed

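QuantSeq 3′ mRNA libraries were made by the authors from cytoplasmic RNA of A375 cells. Per the labels and methods, forward reads were trimmed with fastp 0.20.1, mapped to GRCh38.p13 with HISAT2 2.2.1 and counted on exons with HTSeq 0.13.5. The authors deposited raw counts, whole numbers of reads per gene and library, without normalization. No molecular identifiers are described, so that intervals and limits cover counting error only. All 96 columns were matched to a sample by its description.

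Counts were analysed with edgeR 4.0.16 in R 4.3.3. Of 44659 entries, filterByExpr kept 14948. The quasi-likelihood fit used every library and gave each of the 32 groups its own mean. Tests were two-sided, with the threshold at 0.05 after Benjamini-Hochberg adjustment over all genes kept. Standard errors are approximate, the size of the log2 change over the square root of F. Libraries were scaled by TMM for MAPKi and CHX. For comparisons with triptolide, DESeq2 1.42.0 size factors were taken over 36 stable genes, with CPM over 0.2 at 0 h and at least 1.1 times that under T at both 3 h and 5 h. The study asked for the rise at 3 or 5 h, which gave 527 genes and was run as an alternative. A ratio is one of mean CPM. Where a group was at 0, the ratio was computed against 3 counts in each library, and with few counts a 95% exact counting interval is given.

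All 10 members were followed, and of each pathway list at most the 3 genes with the smallest adjusted p. The members, the lists and the tests were chosen with earlier results of these data known. Alternatives were other scalings, no filter, single times, a replicate block, each replicate left out and DESeq2. On simulated counts for MAPKi against DMSO at 0 h over 14948 genes, 85% of 100 genes changed 2-fold and 99% of 100 changed 4-fold were recovered, with 6 false calls. Promoters came from RefSeq (GRCh38.p14), and positions and 3′ untranslated regions from GENCODE (GRCh38).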

Additional observations from a re-analysis of the deposited data

Results flagged for a closer look

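The response to CHX differed between the pretreatments, by a test of the difference itself, in TNFAIP3 and NFKBIA. In TNFAIP3 the change in MAPKi exceeded that in DMSO by 1.94 ± 0.25 on the log2 scale over 1, 3 and 5 h (adjusted p = 4.28e-09, edgeR), and the rise was seen in 3 of 3 libraries of both pretreatments at 5 h. In NFKBIA it exceeded that in DMSO by 0.31 ± 0.10 (adjusted p = 0.0284, edgeR), and this value did not pass when any one of the replicates was left out.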

How the results depend on the processing

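The 37 calls of members were recomputed under 374 alternatives, of which 335 kept direction and call, 33 kept the direction without the call and 6 changed direction. The 37 include those of CXCL3 in MAPKi, for CHX against vehicle and TCHX against CHX, which the filter fixed. All 6 were at 1 h alone, for CHX against vehicle in LIF (−0.51) and NFKBIA (−0.10) in DMSO and in BIRC3 (−0.42) and TNFAIP3 (−0.0037) in MAPKi, for the difference between the pretreatments in TNFAIP3 (−0.10), and for TCHX against T in TNFAIP3 in DMSO (−0.090). No member call was lost with another scaling or without the filter. At 1 h alone, the members called under CHX against vehicle were 0 in DMSO, 1 in MAPKi and 0 for the difference, and those for TCHX against T in DMSO 1 and for TCHX against CHX 2 in DMSO and 2 in MAPKi. Over 3 h and 5 h, 4 members were called for T in DMSO and 4 in MAPKi. Those in DMSO include CXCL3, whose call rests on few counts.

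Over all genes, the count at 1 h alone and at 3 h alone was 17 and 1910 for CHX in DMSO, 24 and 1872 for CHX in MAPKi, 4 and 240 for their difference, 127 and 4148 for TCHX against CHX in DMSO, and 218 and 5140 in MAPKi. At 1 h it was 9 for TCHX against T in DMSO, 69 in MAPKi and 0 for their difference. For T over 3 h and 5 h it was 7408 in DMSO, 8780 in MAPKi and 430 for their difference. For T at 1 h in MAPKi it was 119 with TMM, 154 with total counts and 198 with stable genes at 3 h or 5 h (527 genes). For the difference of T at 1 h it was 2 with TMM, 2 with total counts, 0 with the wider stable genes, 14 without the filter, 2 with the block and 2 with DESeq2. The difference of TCHX against T fell to 432 with TMM, and DESeq2 called 1 member there and 3 for TCHX against T in MAPKi. For vehicle at 1 h in DMSO it was 44 without the filter, 24 with the block and 24 with DESeq2.

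With each replicate left out, members called ran from 1 to 2 for the CHX difference, 1 to 2 for TCHX against T in MAPKi, 0 to 1 for its difference and 0 to 1 for vehicle at 1 h in MAPKi. All genes called ran from 572 to 681 for the CHX difference, 58 to 69 for T at 1 h in DMSO, 72 to 146 in MAPKi, 0 to 1 for their difference, 251 to 561 for the TCHX difference, 1 to 8 for vehicle at 1 h in DMSO and 4 to 13 in MAPKi.

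The sample descriptions carry a prefix that goes with the replicate number in every group, and the labels do not say what it stands for. The study computed its index for each replicate and held replicate in its model. Deviations from the group means of libraries with the same number correlated at a median of 0.0227 (lowest −0.377, highest 0.396, 1488 pairs), with 24.2% over 0.1. Of 96 libraries, 64 correlated best with their own number, which hints at a link but does not show what it is. With the replicate block no member call was lost in 37 fits, and the members called for the CHX difference went from 2 to 3. The low chemokines are limited by depth, since 3 counts are 0.42 CPM in a library of median size, taken from the unscaled total.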
